A study of Homo sapiens with 74 samples.

Results

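RNA of HEK293T cells transfected with the DNA adenine methylase variant DamV133A alone was compared with RNA of untreated HEK293T cells. The comparison used 4 of the 74 samples of the series, 2 libraries of each group, taken by the labels of the RNA table. All genes entered, and 17740 of its 39037 rows had enough counts to be tested. HEK293T is a line from human embryonic kidney that carries the SV40 large T antigen, a viral protein that binds the tumour suppressor p53. The series mapped contacts between chromosomes and the nuclear lamina with DamID, in which Dam methylates the adenine of GATC near the protein it is fused to. Dam here was the V133A variant, unfused. The labels describe transient transfection with FuGene HD and 1 mM of Shield-1 for 20 hours, in a text that all samples share, and whether untreated cells received either agent is not given. The other RNA groups were 2 libraries from cells with m6A-Tracer, a reader protein for GATC with methylated adenine, and 2 with DamV133A fused to lamin B1 (DamV133A-LMNB1). No group transfected with an empty plasmid was analysed here, and transfection was transient, so each library is a bulk of cells that may or may not have taken up plasmid. The labels do not say that libraries came from separate cultures, so p-values measure the spread between these libraries, which may be technical.

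Dam is a bacterial enzyme, and human nuclear DNA carries little methylated adenine of its own. Shield-1 is a ligand that protects proteins carrying a destabilised FKBP12 domain from degradation, and FKBP12 is the product of FKBP1A. Transfected plasmid DNA can be sensed by cGAS and the interferon pathway, while p53 switches on genes that arrest the cell cycle and repair DNA. The hypoxia-inducible factors drive glycolysis genes, and mRNAs of ribosomal proteins begin with a run of pyrimidines through which growth signals set their translation and stability.

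The RNA libraries held 39690886 to 51455298 estimated counts, and mitochondrially encoded mRNAs took 0.936% and 0.931% in the DamV133A libraries against 0.94% and 0.895% in untreated cells. On log2 CPM (counts per fixed library size, scaled by TMM), the DamV133A pair correlated across genes at r = 0.9918 and the untreated pair at 0.9904. Between the 2 groups r was 0.9816 to 0.9829. The DamV133A-LMNB1 pair stood apart from the other pairs, at 0.986, and it enters the estimate of spread that all groups share. All 11 markers of HEK293T identity passed the low-count filter, with summed levels of 1141 to 1151 CPM in DamV133A and 1559 to 1604 CPM in untreated cells. Of these, 5 were lower, among them the neurofilament genes NEFL and NEFM, against 13.1% of all genes tested, and 6 did not pass. Markers of 6 other cell types summed to at most 34.2 CPM per type in these 4 libraries, with fibroblast genes highest. The filter passed 2 of 5 lymphoid, 3 of 5 macrophage, 5 of 5 fibroblast, 2 of 5 endothelial, 2 of 4 hepatocyte and 2 of 4 erythroid markers. Of these, CD14 was called, at 0.556 and 0.770 CPM with DamV133A against 0.160 and 0.294 CPM.

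FKBP1A and LMNB1 served as checks of the labels. FKBP1A stood at 853 and 844 CPM in the DamV133A libraries and at 359 and 356 CPM in untreated cells, a log2 fold change of 1.25 ± 0.049 (SE; n = 2 libraries per group, as throughout). Its adjusted p was 3.4e-05 in edgeR (quasi-likelihood F test, adjusted by Benjamini-Hochberg), the test behind every adjusted p below. The m6A-Tracer libraries had 291 and 285 CPM, below the untreated libraries, and the DamV133A-LMNB1 libraries 626 and 584 CPM, so FKBP1A was highest in both groups that received a Dam construct. Counts per gene cannot tell RNA of a plasmid from RNA of the chromosome.

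LMNB1, which encodes the lamin B1 of the nuclear lamina, was at 249.6 and 253.3 CPM with DamV133A and at 766 and 768 CPM in untreated cells. Its log2 fold change was -1.61 ± 0.089 (edgeR adjusted p = 6.9e-05). The m6A-Tracer libraries had 251 and 257 CPM, and the direct difference between DamV133A and m6A-Tracer was -0.02 on the log2 scale (edgeR adjusted p = 0.982). Levels were thus low in both of these transfected groups and higher in untreated cells, while DamV133A-LMNB1 had 2548 and 2056 CPM. Of 19 genes of lamins and the inner nuclear membrane, LMNB1 and SUN1 were lower, ZMPSTE24, the protease that matures lamin A, and SUN2 were higher, and 15 did not pass. Over all genes tested, 26.7% were called, and with library totals 7 of the 19 were higher and 1 lower. LMNB2 was at log2 0.02 and LMNA at 0.23, neither past the threshold.

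**Figure D1:**
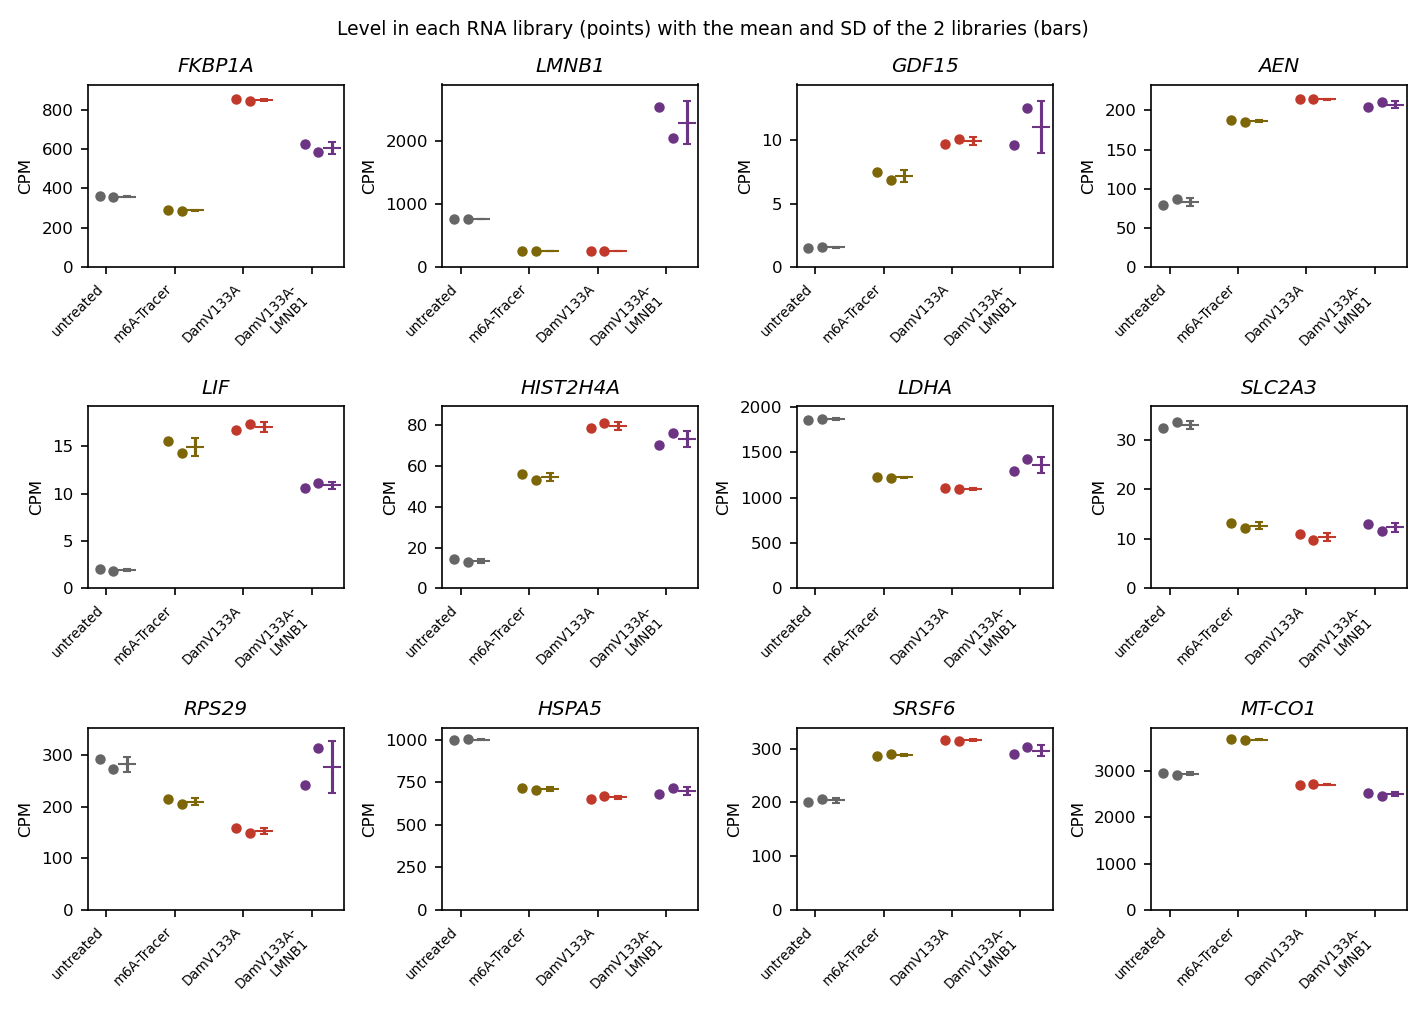
Level (CPM, linear axis from 0) of 12 genes in each RNA library (points), with the mean and SD of each pair (bars), by group. FKBP1A is highest in the groups with a Dam construct, LMNB1 is as low with m6A-Tracer as with DamV133A, and most other panels have m6A-Tracer between untreated and DamV133A; MT-CO1 has it above both.

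Across the transcriptome, 2408 genes were higher with DamV133A (13.6% of those tested) and 2322 were lower (13.1%), 26.7% in all. Changes were mostly small, with a median of 1.39-fold among genes called higher and 1.32-fold among those called lower. At 2-fold or more, 405 genes were higher (2.28%) and 76 lower (0.428%). The call count depended on which libraries set the spread: with only the 4 libraries compared, 4252 were higher (24.8%) and 4472 lower (26.1%) of 17154 tested, 50.9% in all, and without DamV133A-LMNB1 replicate 1 or 2 it was 8720 or 8722. Leaving out each of the 4 compared libraries in turn gave 1389 to 1697 calls, 1586 without DamV133A replicate 1, 1389 without DamV133A replicate 2, 1437 without untreated replicate 1 and 1697 without untreated replicate 2. Scaling to library totals moved the median of all genes to 0.10 on the log2 scale and the split to 3470 higher and 1419 lower.

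**Figure D2:**
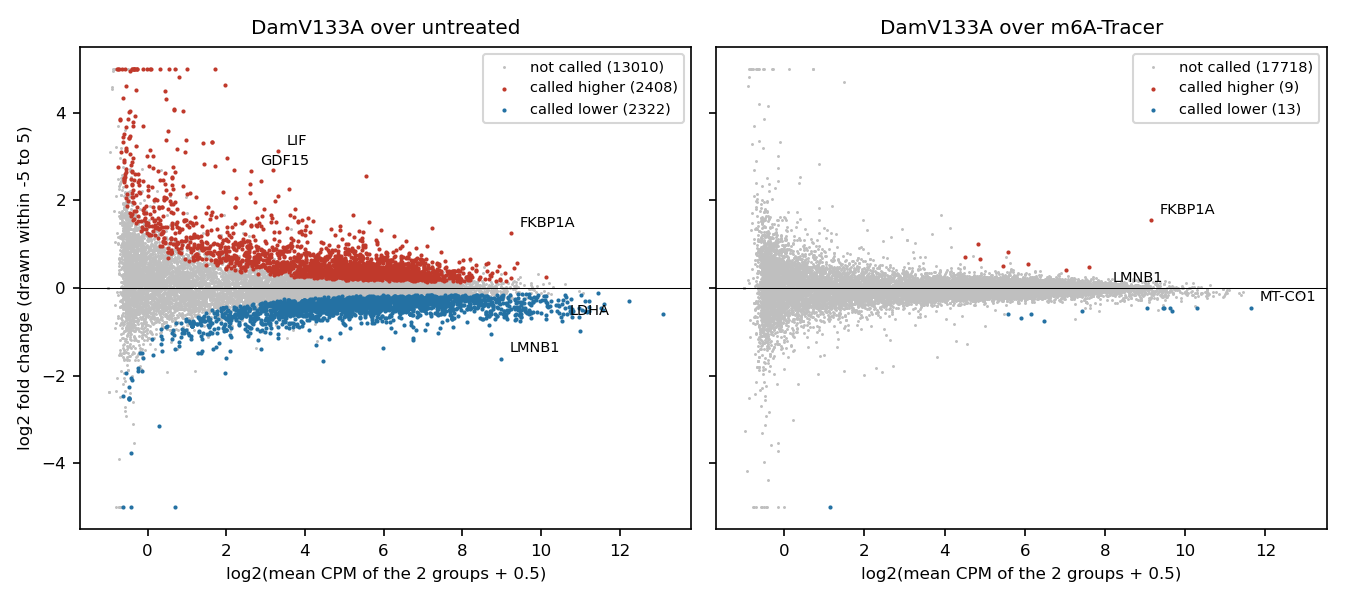
Log2 fold change (values past 5 drawn at the edge) against log2 mean level for 17740 genes, for DamV133A over untreated (left) and over m6A-Tracer (right). Of the genes, 4730 are called on the left and 22 on the right, where FKBP1A stands apart.

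The genes with the smallest adjusted p among those higher included a histone gene, a cytokine gene and AEN, a target of p53. HIST2H4A, a histone H4 gene, was at 78.6 and 81.3 CPM with DamV133A against 14.2 and 12.8 CPM in untreated cells, log2 2.56 ± 0.077 (edgeR adjusted p = 1.3e-05). It has near-identical copies, so its reads are uncertain. LIF, a cytokine of the interleukin 6 family, was at 16.7 and 17.4 CPM against 2.04 and 1.84 CPM, log2 3.13 ± 0.107. In the m6A-Tracer libraries LIF was at 15.6 and 14.3 CPM, far above untreated cells too. PLK2, a stress-induced kinase, rose from 3.41 and 3.73 CPM to 15.3 and 15.3 CPM. RASSF1, a tumour suppressor of the Hippo pathway, rose from 34.3 and 34.5 CPM to 87.4 and 85.4 CPM, and DHRS2, a dehydrogenase, from 4.21 and 3.85 CPM to 20.4 and 18.2 CPM. In each of these genes the DamV133A libraries lay above both untreated libraries. That follows from choosing genes by the smallest adjusted p in these libraries and is not added support. ZNF767P, TYW1B and THUMPD2 completed the list of 10 with FKBP1A and AEN.

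Some of the largest increases began near 0. FOXJ1, a regulator of motile cilia, was at 2.08 and 1.65 CPM against 0.0687 and 0.0245 CPM. KCNN4, a calcium-activated potassium channel, was at 2.32 and 2.50 CPM against 0.0687 and 0.0981 CPM. CYP4F2, a fatty acid hydroxylase, was at 3.24 and 2.65 CPM, with 0 and 0.0981 CPM in untreated cells, so its fold rests on very few counts. All of these were also present with m6A-Tracer, FOXJ1 at 2.13 and 2.38 CPM, KCNN4 at 2.43 and 2.61 CPM and CYP4F2 at 1.76 and 2.00 CPM. LRRC37A4P, a pseudogene of a duplicated family, is on 2 rows that differed in direction. The row called was at 0.0484 and 0 CPM with DamV133A against 2.27 and 2.18 CPM in untreated cells, and the other, with the primary identifier, at 23.6 and 23.1 CPM against 15.5 and 16.6 CPM (not called). Summed, they gave a log2 fold change of 0.36 (edgeR adjusted p = 0.221).

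Among genes that fell, the smallest adjusted p belonged to BHLHE40, NDRG1, HILPDA and SLC2A3. BHLHE40, a transcriptional repressor of the circadian clock, fell from 148.3 and 148.5 CPM to 66.1 and 63.5 CPM, log2 -1.20 ± 0.054 (edgeR adjusted p = 5.5e-05). HILPDA, a lipid droplet protein induced by low oxygen, fell from 91.5 and 91.0 CPM to 35.3 and 35.4 CPM. DDIT4, an inhibitor of mTORC1, fell from 573 and 565 CPM to 276 and 278 CPM. NRN1, a neurite growth factor, and CXCR4, a chemokine receptor, fell by 0.96 and 1.15 on the log2 scale. The libraries of the 2 groups did not overlap for any of these genes, which also follows from the choice by adjusted p.

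**Figure D3:**
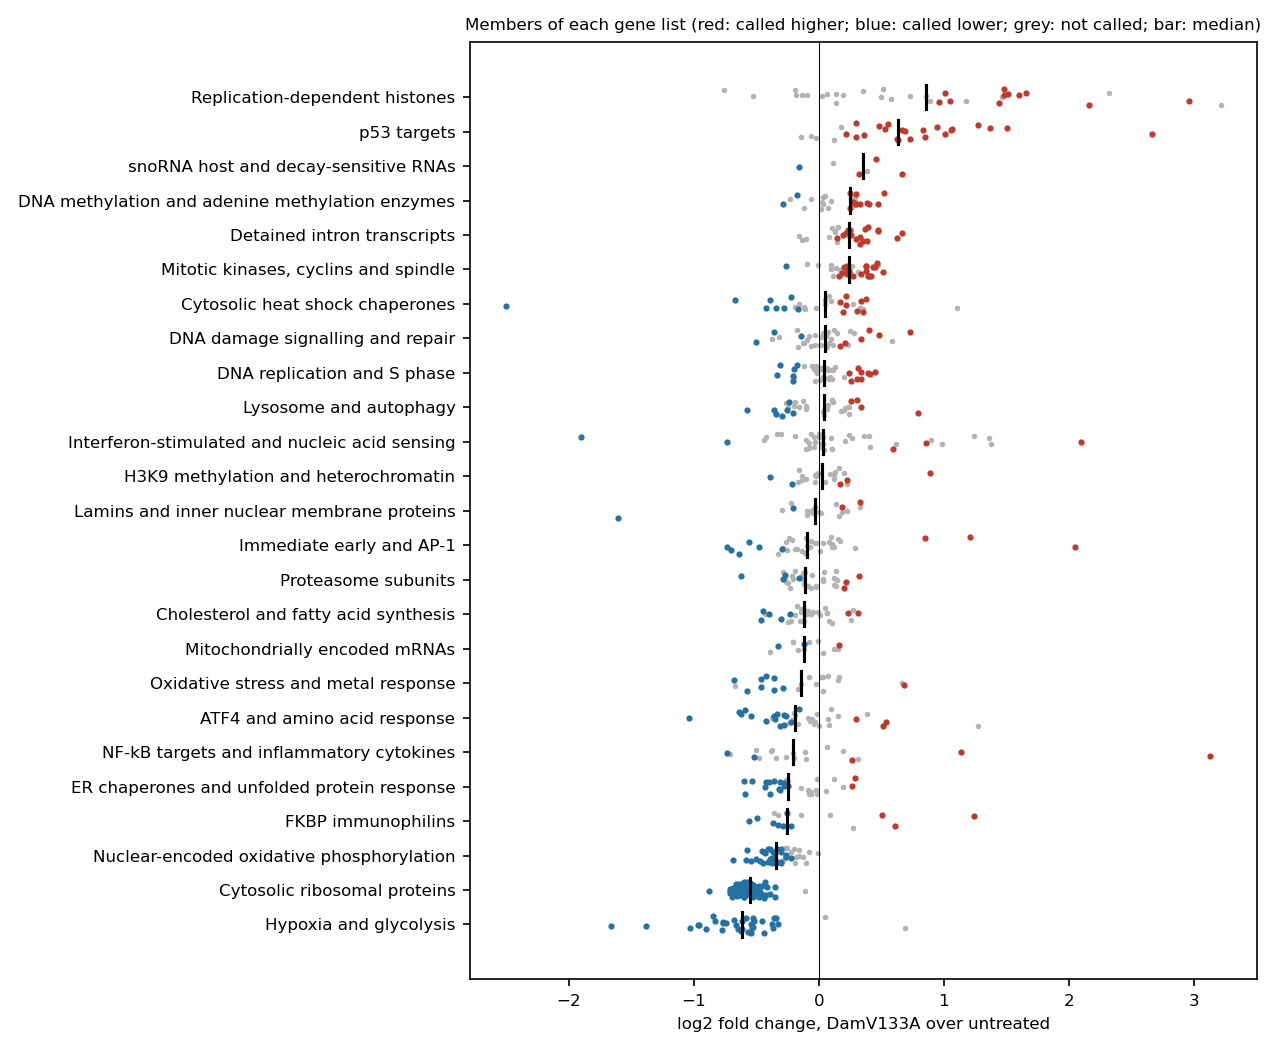
Log2 fold change of DamV133A over untreated for each tested member (points) of 25 gene lists, with the median of each list (bars); red points were called higher, blue lower and grey not called. Most hypoxia and all ribosomal protein genes lie below 0 and most p53 targets above it.

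Targets of p53 rose together. Of 27 tested, 22 were higher against 13.6% of all genes, 5 did not pass, and the median log2 fold change was 0.63 against 0.01 over all genes. GDF15, a stress cytokine, was at 9.70 and 10.1 CPM against 1.53 and 1.59 CPM, log2 2.66 ± 0.159. AEN, a nuclease, was at 214.1 and 215.0 CPM against 79.4 and 86.9 CPM, log2 1.37 ± 0.058. PLK3 and DDB2, a kinase and a DNA damage sensor, rose by 1.51 and 1.27. The cell cycle inhibitor gene CDKN1A rose by 0.48 and MDM2, which encodes the ligase that degrades p53, by 0.63. Of the apoptosis genes in the list, FAS and AEN were among the 22 called higher. BBC3, BAX, PMAIP1 and TNFRSF10B did not pass, with log2 values of -0.14, 0.13, -0.02 and 0.18, and neither did CCNG1 at -0.06. Per library, the median of the list over the untreated mean was 0.65 and 0.63 with DamV133A and 0.43 and 0.49 with m6A-Tracer, on log2(CPM + 0.5). In the DamV133A-LMNB1 libraries it was 0.44 and 0.50, close to m6A-Tracer. With the 4 libraries alone 24 were higher and 1 lower.

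Of 38 genes of DNA damage signalling and repair, 6 were higher and 3 lower (median 0.05), against 13.6% and 13.1% of all genes. The counts were 16 and 11 with the 4 libraries alone and 10 and 2 with library totals. LIG4, the ligase of end joining, was higher by 0.73, and XRCC1 by 0.49, and MPG, which excises alkylated bases, was lower by 0.50. Of 27 genes for DNA and adenine methylation, including enzymes and readers, 11 were higher and 2 lower (median 0.25), against the same 13.6% and 13.1%. ALKBH1, reported as a demethylase of adenine, rose by 0.52, and YTHDF3 and YTHDF2, readers of methylated adenine in RNA, rose by 0.47 and 0.38.

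Hypoxia and glycolysis genes fell. Of 35 tested, 33 were lower, against 13.1% of all genes, and the median log2 fold change was -0.61. SLC2A3, a glucose transporter, was at 10.9 and 9.86 CPM with DamV133A against 32.4 and 33.5 CPM in untreated cells, log2 -1.67 ± 0.092. LDHA, lactate dehydrogenase, was at 1103 and 1090 CPM against 1852 and 1869 CPM, and PGK1, a kinase of glycolysis, at 534 and 524 CPM against 899 and 895 CPM. ANKRD37 fell by 1.38, NDRG1 by 1.03, ALDOC by 0.96 and P4HA1, a collagen prolyl hydroxylase, by 0.84. The exceptions were KDM3A at log2 0.05 and the lactate exporter gene SLC16A3 at 0.69 (edgeR adjusted p = 0.051). The summed level of the list was 12340 and 12210 CPM with DamV133A, 18240 and 18080 CPM in untreated and 13620 and 13410 CPM in m6A-Tracer cells. The DamV133A-LMNB1 libraries had 14500 and 16150 CPM. All transfected groups lay below both untreated libraries, with DamV133A lowest and DamV133A-LMNB1 nearest to untreated.

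Promoter windows of these genes are shown because the core of the hypoxia response element, ACGTG, was searched in them on both strands. Windows from RefSeq (GRCh38.p14) ran from 250 bases before to 50 after the start. Of 31 list members with a window, 13 held the core (41.9%). The share was 25.4% for genes called lower, 25.6% for tested genes and 21.6% for all 27305 windows. It was 40.7% of 27 windows for mitotic genes and 45.8% of 24 for transcripts with detained introns, lists that leaned higher. For the ATF4 list, which leaned lower, it was 17.2% of 29. A high share was thus not particular to lists that fell. A match is a description of the letters and not of binding. The core, or its reverse complement CACGT, is in capitals. LDHA, PGK1, ANKRD37 and P4HA1 are among the 13, and BHLHE40, described above, is not in the list.
LDHA, chr11:18394460-18394524, plus strand: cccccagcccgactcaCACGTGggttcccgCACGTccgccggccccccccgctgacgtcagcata
PGK1, chrX:78104035-78104099, plus strand: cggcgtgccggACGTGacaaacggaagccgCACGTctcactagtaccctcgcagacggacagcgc
ANKRD37, chr4:185396668-185396732, plus strand: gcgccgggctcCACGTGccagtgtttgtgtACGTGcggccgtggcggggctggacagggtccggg
P4HA1, chr10:73096918-73096982, minus strand: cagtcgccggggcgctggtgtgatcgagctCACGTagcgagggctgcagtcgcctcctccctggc
BHLHE40, chr3:4979258-4979322, plus strand: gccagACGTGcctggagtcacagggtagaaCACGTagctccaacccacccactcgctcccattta

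Genes of cytosolic ribosomal proteins fell. Of 77 tested, 76 were lower, against 13.1% of all genes, and the median was -0.55. RPS29 was at 158.0 and 149.1 CPM against 293 and 272.5 CPM, log2 -0.88 ± 0.110 (edgeR adjusted p = 0.00164). RPL37A fell by 0.71, RPLP2 by 0.71 and RPS27 by 0.71. RPS9 did not pass, at -0.11, but its reads are split over 4 tested rows, of which another was called at -0.46, and summed they were at -0.33 (edgeR adjusted p = 0.0508). Summed over the list, levels were 52560 and 51590 CPM with DamV133A, 76600 and 75060 CPM in untreated and 59140 and 58520 CPM in m6A-Tracer cells. The DamV133A-LMNB1 libraries had 66880 and 83370 CPM and so straddled the untreated libraries. With library totals 75 of the 77 were lower.

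Their start sites are shown because translation of these mRNAs is set by a run of pyrimidines at the first base. A run of at least 7 C and T that begins with C within 10 bases of the start, on the gene's own strand, was found in 48 of 61 list members with a window (78.7%). The share was 19.4% for all genes called lower, 11.5% for those higher by less than 2-fold and 13.7% for all tested. RPS29, which fell most among the ribosomal protein genes named above, had no such run at the annotated start searched. Each gene was searched at a single annotated start, so a run at another start would be missed. Windows of 30 bases before the start and 15 from it on have the run in capitals, and RPS9, which did not pass, carries it too.
RPS27, chr1:153990732-153990776, plus strand: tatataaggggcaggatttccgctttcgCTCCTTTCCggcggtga
RPL37A, chr2:216498814-216498858, plus strand: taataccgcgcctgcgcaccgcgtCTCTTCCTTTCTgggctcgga
RPLP2, chr11:809937-809981, plus strand: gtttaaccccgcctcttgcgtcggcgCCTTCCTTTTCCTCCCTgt
RPS9, chr19:54200828-54200872, plus strand: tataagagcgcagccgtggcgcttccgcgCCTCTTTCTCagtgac

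**Figure D4:**
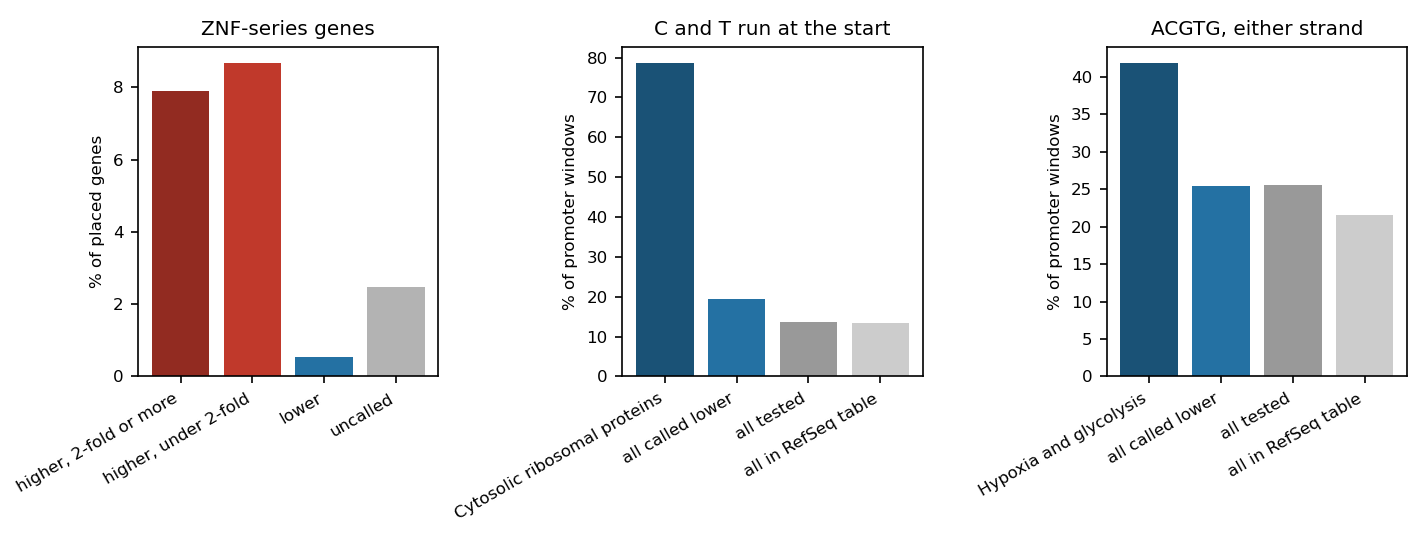
Shares in percent, bars from 0: genes named ZNF with a number among placed genes by call (left), promoter windows with a run of C and T at the start (middle) and windows with ACGTG on either strand (right). The run is in 78.7% of ribosomal protein windows and the core in 41.9% of hypoxia windows, against 13.7% and 25.6% of tested genes. The core is also in 40.7% of windows of mitotic genes, which leaned higher and are not drawn.

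Nuclear genes of oxidative phosphorylation were lower in 29 of 43 cases, against 13.1% of all genes, with a median of -0.34, and 14 did not pass. NDUFA1, a subunit of complex I, was at 50.6 and 48.9 CPM against 80.9 and 79.0 CPM, log2 -0.69 ± 0.094. UQCRH, COX7C and COX7A2 fell by 0.58, 0.57 and 0.54. Among the 13 mRNAs encoded by mitochondrial DNA, MT-ND1 was higher, at log2 0.17, and MT-ND6 and MT-CO1 were lower, at -0.32 and -0.12. The other 10 did not pass, and the share called was near the 26.7% of all genes. With library totals 3 were higher and 1 lower. Of the nuclear genes, 18 were lower with library totals, and 41 with the 4 libraries alone.

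Genes of the endoplasmic reticulum and of amino acid supply were lower more often than higher. Of 29 genes for chaperones and the unfolded protein response, 14 were lower and 2 higher (median -0.24), against 13.1% and 13.6% of all genes. HSPA5, the main chaperone of the compartment, was at 654 and 666 CPM against 998 and 1001 CPM, log2 -0.60 ± 0.044. HERPUD1 and DERL3, of the degradation machinery, fell by 0.53 and 0.59. Of 37 genes of ATF4 and the amino acid response, 15 were lower and 3 higher, against the same shares. DDIT4 led them at -1.04, then SLC7A3, an arginine transporter, at -0.64 and PCK2 at -0.62. Of 29 cytosolic heat shock chaperones, 8 were higher and 8 lower (median 0.05), against 13.6% and 13.1% of all genes. With library totals 13 were higher and 6 lower, so this list did not lean lower. The 4 called members with the largest changes were all lower, among them HSPB1 by 0.67 and the mitochondrial cochaperonin HSPE1 by 0.42.

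Interferon and nucleic acid sensing genes showed few calls. Of 53 in the list 41 were tested, 3 were higher and 2 lower, against 13.6% and 13.1% of all genes, and 12 were not tested, among them IFNB1, CXCL10 and CCL5. MB21D1, the gene of the DNA sensor cGAS, was at 0.895 and 0.751 CPM against 0.206 and 0.172 CPM, and DDX58, which encodes the RNA sensor RIG-I, at 8.61 and 7.92 CPM against 4.69 and 4.39 CPM. IRF9 was higher by 0.60. BST2 and IFI6 were lower, IFI6 at 4.98 and 5.41 CPM against 8.56 and 8.71 CPM. The interferon-induced genes ISG15, MX1 and IFIT1 were at log2 0.27, 0.25 and -0.30 and did not pass. Of 19 genes of NF-kB and inflammatory cytokines, LIF, BIRC3 and NFKB1 were higher and TNFAIP2 and BCL3 lower, a share near the 26.7% called over all genes. Among 35 immediate early genes, DUSP8, FOSL1 and BTG2 were higher by 2.05, 1.21 and 0.85, and FOS, JUNB, ARC, MYC, NR4A1 and KLF10 were lower, again near 26.7%. With library totals 5 were higher and 5 lower.

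Of 32 mitotic genes, 20 were higher, against 13.6% of all genes, and 1, MAD2L1, lower, with a median of 0.25. PRC1, which bundles the central spindle, was at 347 and 351 CPM against 253 and 257 CPM, log2 0.45 ± 0.043, and AURKA, HMMR and CENPE were higher by 0.44, 0.47 and 0.52. Of 40 genes of DNA replication, 9 were higher and 6 lower (median 0.04; 16 and 2 with library totals), against 13.6% and 13.1% of all genes, CDC6 and E2F1 being higher by 0.45 and 0.41. Bulk RNA cannot tell more cells in a phase from more RNA per cell. Of 33 replication-dependent histone genes tested, 11 were higher, against 13.6% of all genes, and 22 did not pass, with a median of 0.86. HIST1H4H was at 6.43 and 6.18 CPM against 0.733 and 0.883 CPM, and HIST1H2AC at 12.7 and 12.7 CPM against 3.94 and 4.09 CPM. Most of these mRNAs lack a poly(A) tail, the labels give polyA RNA, and the copies share sequence, so their levels are uncertain.

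Transcripts known for detained introns, many of them for splicing factors, were higher in 17 of 27 cases, against 13.6% of all genes, with a median of 0.25. SRSF6 was at 317 and 314 CPM against 201 and 207 CPM, log2 0.63 ± 0.048. NKTR, CLK1, a kinase of splicing factors, and LUC7L were higher by 0.66, 0.48 and 0.48. Of the splicing factor genes, SRSF5 was at log2 -0.16 and did not pass. Counts per gene do not separate spliced from unspliced RNA.

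**Figure D5:**
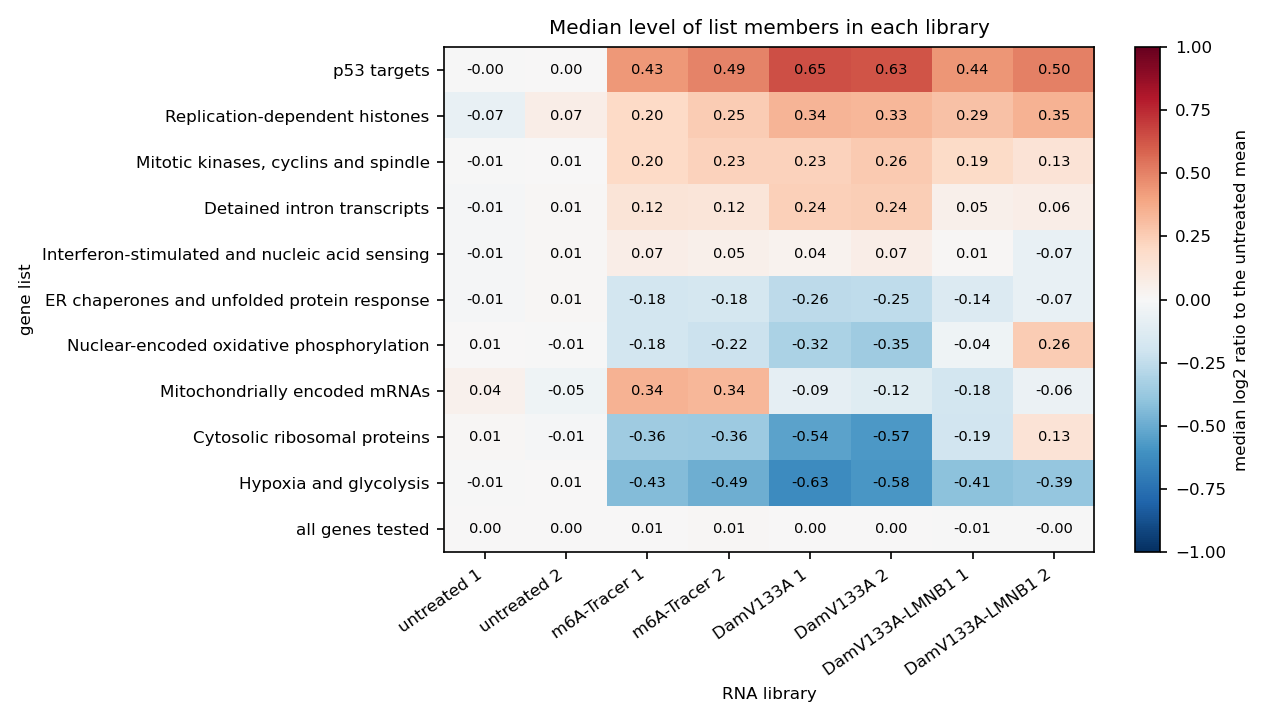
Median log2 ratio of list members to the mean of the untreated libraries, on log2(CPM + 0.5), in each of the 8 RNA libraries (columns) for 10 gene lists and all genes tested (rows). For ribosomal proteins the medians are -0.54 and -0.57 with DamV133A, -0.36 and -0.36 with m6A-Tracer, and -0.19 and 0.13 with DamV133A-LMNB1. All groups share the untreated mean.

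DamV133A was compared directly with m6A-Tracer, the other single construct, to ask what separated the 2 transfected groups. Of 17740 genes, 9 were higher with DamV133A (0.0507%) and 13 lower (0.0733%), 0.124% in all, and 1588 had an unadjusted p under 0.05. FKBP1A led at log2 1.56 ± 0.049 (edgeR adjusted p = 1.8e-05). Of 27 p53 targets, 35 hypoxia genes and 77 ribosomal protein genes, no member passed in this direct test, with list medians of 0.15, -0.15 and -0.20, and a miss does not show that the groups acted alike. The only list with more than 1 call was that of mitochondrially encoded mRNAs, in which 7 of 13 were lower with DamV133A and the median was -0.46. MT-CO1 was at 2697 and 2706 CPM with DamV133A, 3683 and 3666 CPM with m6A-Tracer and 2962 and 2916 CPM in untreated cells, so m6A-Tracer stood above both. The count rose to 1016 higher and 977 lower with the 4 libraries of this comparison alone. With each of those 4 libraries left out in turn, 1 gene was called. Both comparisons share the DamV133A libraries.

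Against DamV133A alone, the lamin B1 fusion had 2258 genes higher (12.7%) and 1340 lower (7.55%), 20.3% in all, but 1 was called when only those 4 libraries were fitted, and 1 when either DamV133A library was left out. LMNB1 was the gene with the smallest adjusted p, log2 3.19 ± 0.095. Ribosomal protein genes were higher with the fusion in 77 of 77 cases in the shared fit, with a median of 0.55.

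Of the tested genes, 16152 were placed on the genome, and 15548 of them lay in tested 100 kb bins, classed from the bulk DamID libraries. LAD bins, at the lamina, held 8.3% of these 15548 genes. The share was 8.26% for those higher by 2-fold or more, 4.62% for higher by less, 4.34% for lower and 9.65% for uncalled genes. With library totals in the calling of bins the shares were 5.73%, 7.08%, 3.06%, 2.81% and 6.68%. DamV133A methylation over the gene, in counts per DpnI fragment relative to the genome mean of 2 other DamV133A libraries, had a median of 0.756 for genes higher by 2-fold or more, 0.891 for those higher by less, 0.696 for those lower and 0.818 for uncalled genes. Genes called lower were also shorter, with a median span of 19.4 kb against 31.2 kb for uncalled genes. GATC, the site of Dam, was in 38.2%, 40.0%, 36.8% and 38.6% of promoter windows of the 4 classes in the same order. Genes are not replicates, so these shares and medians were not tested.

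Other short motifs were searched on both strands of the same windows. CCAAT was in 83.3% of 30 windows of replication-dependent histones, 81.5% of 27 of mitotic genes and 84.0% of 25 of the unfolded protein response list, against 36.5% of tested genes. The histone and mitotic lists leaned higher and the third leaned lower, so the motif was common in lists of either direction. TGACTCA was in 3.12% and TGACGTCA in 3.05% of tested genes. The latter, the cyclic AMP response element, stood in 4.93% of genes higher by less than 2-fold and 1.97% of those lower. A pair of p53 half-sites was found in none of the 22 windows of p53 targets and in 0.0183% of all 27305, and many of its known sites lie outside such windows.

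Genes named ZNF with a number, mostly zinc finger transcription factors, were chosen for description after their values were seen. They made up 28 of the 354 placed genes higher by 2-fold or more and 165 of 1902 higher by less (7.91% and 8.68%). They made up 12 of 2208 genes called lower (0.543%), against 495 of all 16152 placed genes (3.06%). Many of these genes share sequence within their family, so reads may be split between them.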

How the data were processed

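Polyadenylated RNA of 8 HEK293T libraries was analysed. The authors deposited estimated counts per gene (46.6% of values not whole), with Ensembl GRCh38.p13 identifiers per the file headers, and whole-number counts per DpnI fragment and per 100 kb bin. The submitters' processing notes name Salmon and DESeq2, without tying tools to files. Estimated counts were rounded and tested in edgeR 4.0.16 (R 4.3.3) with filterByExpr, TMM and glmQLFTest over 8 libraries in 4 groups, and calls had Benjamini-Hochberg adjusted p under 0.05. The depth was 39690886 to 51455298 counts per library. DESeq2 1.42.0 and limma 3.58.1 were alternatives. LAD bins were called by edgeR from bulk libraries. The test was tried on simulated data. Samples were grouped by their labels. Named genes were FKBP1A, LMNB1, those with the smallest adjusted p or largest fold in each direction, and at most 4 called members of each list. Other members named were added after their values were seen. Members and lists were chosen with earlier results of these data known. Symbols on more than 1 row numbered 1802 and were kept as separate rows. The 54 single-cell columns were not used.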

Additional observations from a re-analysis of the deposited data

Results flagged for a closer look

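In edgeR's direct test of DamV133A against m6A-Tracer (n = 2 libraries each), 22 genes differed. Given here are 10 of them, 5 higher and 5 lower, taken in order of adjusted p. Higher with DamV133A were FKBP1A by 1.56 on the log2 scale, PRDM15 by 1.00, TRPM4 by 0.71, NR2C2AP by 0.66 and PRPF38B by 0.48. Lower were MT-ATP8 at -0.76, DPH1 at -0.585, DFFA at -0.53, MT-ND1 at -0.46 and MT-CO1 at -0.44. PRDM15 was at 37.9 and 36.3 CPM with DamV133A, 20.0 and 17.0 CPM with m6A-Tracer and 16.0 and 16.3 CPM in untreated cells. DFFA, the inhibitor of the apoptotic nuclease, was at 137.5 and 142.0 CPM with DamV133A against 201 and 203 CPM with m6A-Tracer. DFFA was at 209.0 and 211.2 CPM in untreated cells. The DamV133A-LMNB1 libraries had PRDM15 at 23.0 and 19.1 CPM and DFFA at 190.2 and 187.1 CPM. In both genes m6A-Tracer and the fusion thus stood nearer the untreated libraries than DamV133A alone did. The 3 mitochondrial genes were instead high with m6A-Tracer. With each of these 4 libraries left out in turn, 1 gene was called.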

How the results depend on the processing

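Of the 138 genes named by rule, LRRC37A4P reversed in DamV133A over untreated, to 0.355 (log2) with rows of 1 symbol summed, an alternative chosen after seeing the data. Many others kept their sign but lost their call. Against a 1.2-fold threshold 45 of the 138 were no longer called. Named genes also lost their call when any of the 4 compared libraries was left out, which leaves a single library in a group. Of 761 list members, 63 took the other sign with library totals, none of them called; CCNG1 and PMAIP1 went to 0.03 and 0.07. The calls of that comparison numbered 8724 with only the 4 libraries compared (4252 higher, 4472 lower) and 1360 against a 1.2-fold threshold (866, 494). They spanned 1389 to 8722 with 1 library left out, with 875 to 4305 higher and 514 to 4475 lower; the upper ends lack a DamV133A-LMNB1 library, an alternative chosen after seeing the data. Library totals gave 1419 lower. For DamV133A over m6A-Tracer, calls numbered 330 without a filter (139, 191), 57 with DESeq2 (27, 30), 1993 with 4 libraries (1016, 977), 1 against the 1.2-fold threshold (1, 0; 361 at unadjusted p under 0.05), and 1 to 2074 with a library left out (1 to 1004 higher, 0 to 1200 lower). For DamV133A-LMNB1 over DamV133A, calls numbered 5437 without a filter (2503 lower), 1 with 4 libraries (1, 0), 1 against the threshold (1, 0) and 1 to 8956 with a library left out (1 to 4723 higher, 0 to 4233 lower); library totals gave 1458 higher and 2363 lower. The cause was not tested. With 5 kb added to genes, median DamV133A signal was 0.883 for genes higher by less than 2-fold and 0.717 for lower genes.

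Replicate numbers did not pair the samples, with correlations of deviations of -0.05 to 0.024. With the number as a replicate block, calls were 3906 for DamV133A over untreated, 1 for DamV133A over m6A-Tracer (1, 0) and 2077 for the fusion over DamV133A (1421, 656).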

Other observations

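Other lists are read against 13.1% of all genes called lower and 13.6% called higher. Of 33 genes of cholesterol and fatty acid synthesis, 5 were lower and 2 higher (3 and 4 with library totals), with INSIG1, which retains the sterol sensor, at 266.5 and 274 CPM against 367 and 371 CPM. Of 21 genes of oxidative stress and metal response, 8 were lower and 1 higher (6 and 4 with library totals). Thioredoxin (TXN) fell from 272 and 270.4 CPM to 169.3 and 170.3 CPM, while SLC30A1, a zinc exporter, rose from 28.4 and 28.0 CPM to 45.9 and 44.7 CPM. Of 33 lysosome and autophagy genes, 7 were lower, among them CTSB and CTSL, and 4 higher, with NEU1, whose symbol is on 8 rows, at log2 0.79. With library totals 4 were lower and 11 higher. Of 35 proteasome genes, 4 were lower, with the PSME1 and PSME2 activator subunits at -0.62 and -0.29, and 3 higher (1 and 8 with library totals). Of 22 genes of H3K9 methylation and heterochromatin, ATF7IP was higher by 0.89 and CBX1 was lower by 0.39, and 17 did not pass, with 3 higher and 2 lower in all (6 and 1 with library totals). TAF1D, which hosts small nucleolar RNAs in its introns, was higher by 0.67.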
